A study of Mus musculus with 20 samples.

Results

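Chemokines and their receptors were followed across 4 groups of old mice in RNA sequenced from the plantaris, a calf muscle. The members were taken by gene name: every Ccl, Cxcl, Ccr and Cxcr gene with a number, the atypical receptors Ackr1 to Ackr4, and Cx3cl1, Cx3cr1, Xcl1 and Xcr1. This gave 51 of the 22660 genes in the table. Each group held 5 mice, named by group and replicate number below. All were male C57BL/6J mice with an age of 2 years in the labels, and the groups crossed surgery (sham or MOV) with treatment (vehicle or D + Q). MOV (mechanical overload) was made by synergist ablation, in which part of the soleus and gastrocnemius was cut away in both hind limbs so that the plantaris took over their load, and in sham mice the skin alone was opened. D + Q, a senolytic mixture of dasatinib at 5 mg/kg and quercetin at 50 mg/kg, was given by gavage on days 7 and 10, vehicle mice received the carrier alone, and every muscle was collected on day 14. For sham mice the series' own design text instead puts that later dose on day 14, the day of collection.

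Chemokines are small secreted proteins that draw leukocytes along a gradient through G protein-coupled receptors. CC ligands such as Ccl2 recruit monocytes through Ccr2, CXC ligands recruit mainly neutrophils or lymphocytes, Cx3cl1 is made as a membrane-bound ligand for Cx3cr1, and the atypical receptors bind chemokines without G protein signalling and remove or transport them. In damaged or overloaded muscle they bring in the monocytes and macrophages that accompany repair, and several are counted among the secreted products of senescent cells.

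Levels are given as CPM, a gene's estimated counts scaled by library total and TMM factor, with SD over 5 mice. The total count ranged from 17887532 to 26234518 per mouse. Fold changes are on the log2 scale with their standard errors, and adjusted p-values come from edgeR's quasi-likelihood test with Benjamini-Hochberg adjustment over all genes tested in that comparison. A gene was called at an adjusted p under 0.05 and was tested only where at least 5 mice of the comparison had at least 10 counts. The p-values measure the spread between these mice. The tissue matched its label as muscle by 8 muscle fibre markers. They summed to 133816 to 154850 and 144924 to 154343 CPM in sham mice with vehicle and with D + Q. In MOV mice the sums were lower, at 79439 to 109257 and 77814 to 97085 CPM. Of the 8 markers, 4 were called lower and 1 higher after MOV with vehicle, and 5 lower and 1 higher with D + Q. The part of this lower fibre share in the changes given below was not tested. Vehicle MOV mice 2 and 4 stood apart within their group: mouse 4 was the highest of the 5 in 25 of 33 members tested (29.8% of all genes), mouse 2 the lowest in 13 (27.4%).

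The first question was which chemokine genes differed between overloaded and sham muscle. In vehicle mice 33 members could be tested. Of these, 22 were higher after MOV, against 30.7% of all genes tested, and 2 were lower, against 29.8%. A rise of at least 2-fold was called for 20 members, against 17.8% of all genes. In D + Q mice 34 members could be tested, with 26 higher against 34.4% of all genes, 3 lower against 30.9%, and 23 at least 2-fold higher against 19.2%. The median log2 fold change of the tested members was 1.48 with vehicle and 1.61 with D + Q, beside -0.02 and 0.02 over all genes. The 2 comparisons shared no mice, and 23 members were called in both, with the same sign each time (21 higher, 2 lower), which is 95.8% of the calls with vehicle and 79.3% of those with D + Q. Over all genes the same shares were 89.4% and 81.0%. In each comparison 15 of the members tested had at least 10 counts in only some or none of the sham mice. The count minimum favours a rise in members that were tested only because of their MOV mice. Among the 18 members with 10 counts or more in every vehicle sham mouse, 11 were higher, 2 lower and 5 were not called, beside 27.0% higher and 34.0% lower among all genes that met the same condition. In D + Q mice the same count was 13 higher, 3 lower and 3 not called among 19, beside 30.9% and 35.5% of all such genes. With library totals alone in place of TMM scaling, all genes shifted upward by a median of 0.36 and 0.39, and the calls became 25 higher and 0 lower with vehicle and 27 higher and 0 lower with D + Q. In either direction 9136 of 14601 and 10046 of 14913 genes were then called.

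**Figure D1:**
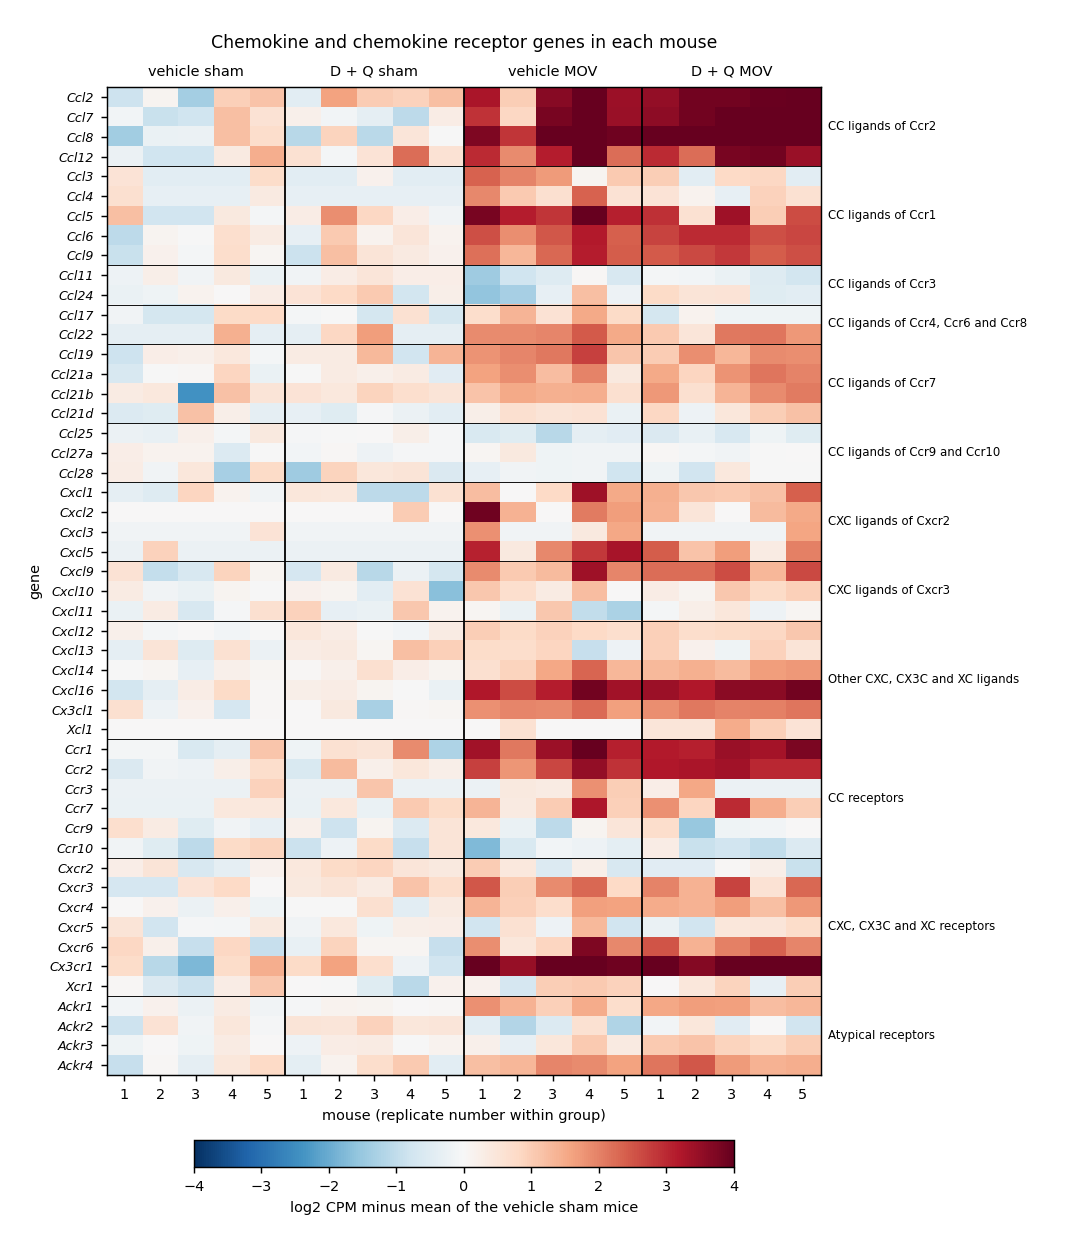
Log2 CPM of 50 of the 51 members (rows, grouped by role) in each of the 20 mice (columns), minus the mean of the 5 vehicle sham mice, with colours cut at 4 in either direction. The members grouped as ligands of Ccr2, the receptors Ccr1, Ccr2 and Cx3cr1, and Cxcl16 are raised in both MOV groups. Vehicle MOV mouse 2 is paler than its group, and its Ccl2 and Ccl7 lie within the sham range.

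The members grouped here as ligands of Ccr2, a receptor of monocytes, were among those with the largest rises. All 4 of them, Ccl2, Ccl7, Ccl8 and Ccl12, were higher after MOV in both treatments. The grouping is a label, and which receptor each of them, Ccl8 included, acts on in this muscle was not measured. They lie in one stretch of chromosome 11 on the plus strand (GRCm39, from 81926397 to 82007625), in the order Ccl2, Ccl7, Ccl11, Ccl12 and Ccl8. Ccl11, the third in this row, did not rise. The promoters of all 5 genes are printed from the GRCm39 genome, from 250 bases before the annotated start to 50 bases from it, because 4 neighbours moved together and 1 did not. Capitals mark matches on either strand to the TATA box as TATAAA, to the AP-1 site as TGANTCA and to the core of STAT sites as TTCNNNGAA, and the NF-kappaB site was searched by its consensus. The motifs marked do not overlap in these promoters.
Ccl2 (chr11:81926147-81926446, plus strand): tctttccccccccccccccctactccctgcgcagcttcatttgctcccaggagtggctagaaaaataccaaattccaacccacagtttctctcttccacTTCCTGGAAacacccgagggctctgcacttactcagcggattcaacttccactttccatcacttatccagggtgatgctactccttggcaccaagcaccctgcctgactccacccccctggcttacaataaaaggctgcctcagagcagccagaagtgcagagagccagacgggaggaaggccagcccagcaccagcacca
Ccl7 (chr11:81936282-81936581, plus strand): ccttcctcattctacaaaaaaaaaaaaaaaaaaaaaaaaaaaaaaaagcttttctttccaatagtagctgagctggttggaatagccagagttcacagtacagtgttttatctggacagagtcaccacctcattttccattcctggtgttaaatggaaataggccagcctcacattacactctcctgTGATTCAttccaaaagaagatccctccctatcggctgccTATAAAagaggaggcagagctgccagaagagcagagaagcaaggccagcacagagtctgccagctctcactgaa
Ccl11 (chr11:81948368-81948667, plus strand): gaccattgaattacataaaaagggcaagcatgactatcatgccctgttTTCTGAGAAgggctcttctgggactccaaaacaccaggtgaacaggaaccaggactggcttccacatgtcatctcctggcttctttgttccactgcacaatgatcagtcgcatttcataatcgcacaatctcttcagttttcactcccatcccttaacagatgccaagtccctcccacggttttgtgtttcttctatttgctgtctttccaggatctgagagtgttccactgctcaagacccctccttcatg
Ccl12 (chr11:81992395-81992694, plus strand): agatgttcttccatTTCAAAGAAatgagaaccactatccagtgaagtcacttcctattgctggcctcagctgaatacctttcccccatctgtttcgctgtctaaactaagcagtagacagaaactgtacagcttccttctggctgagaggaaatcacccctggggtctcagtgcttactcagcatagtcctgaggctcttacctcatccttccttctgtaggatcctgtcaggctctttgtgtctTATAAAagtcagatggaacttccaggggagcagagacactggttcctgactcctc
Ccl8 (chr11:82005757-82006056, plus strand): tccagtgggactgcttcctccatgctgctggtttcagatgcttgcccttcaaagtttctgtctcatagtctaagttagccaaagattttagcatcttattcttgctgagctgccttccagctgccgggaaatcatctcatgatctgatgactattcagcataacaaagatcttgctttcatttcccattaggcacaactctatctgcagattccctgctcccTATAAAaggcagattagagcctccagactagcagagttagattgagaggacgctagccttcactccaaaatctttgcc

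TATAAA stands in the windows of Ccl7, Ccl12 and Ccl8 and in 13.2% of 21770 protein-coding promoters of the same length. TGANTCA was matched in the Ccl7 window alone among these 5 genes and in 7.14% of all promoters. TTCNNNGAA was matched in Ccl2, Ccl11 and Ccl12 and in 8.81% of all promoters. An NF-kappaB match was in none of the 5 windows, in 11 of all 51 members and in 8.97% of all promoters. The letters printed do not divide Ccl11 from its neighbours by any of these 4 motifs, since TTCNNNGAA is shared with Ccl2 and Ccl12.

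Ccl2 was at 0.138, 0.345, 0.0637, 0.695 and 0.822 CPM in vehicle sham mice 1 to 5 and at 0.209, 1.16, 0.731, 0.679 and 0.863 CPM in D + Q sham mice 1 to 5. The corresponding Ccl2 levels after MOV were 3.83, 0.725, 5.01, 11.0 and 4.32 CPM with vehicle and 4.63, 5.87, 5.92, 6.28 and 7.04 CPM with D + Q. Every D + Q MOV mouse was above every D + Q sham mouse, whereas vehicle MOV mouse 2 fell within the sham range. Ccl2, the main monocyte attractant, rose by 3.61 ± 0.734 with vehicle (adjusted p = 0.00151, edgeR) and 3.07 ± 0.257 with D + Q (adjusted p = 1.17e-08, edgeR). Ccl7 was at 0.367, 0.173, 0.191, 1.04 and 0.646 CPM in vehicle sham mice 1 to 5 and at 0.471, 0.366, 0.292, 0.146 and 0.508 CPM in D + Q sham mice 1 to 5. The corresponding Ccl7 levels after MOV were 3.59, 0.777, 6.78, 17.1 and 5.38 CPM with vehicle and 5.77, 7.18, 8.72, 9.14 and 13.7 CPM with D + Q. Here too vehicle MOV mouse 2 lay within the sham range and mouse 4 was the highest of all 20 mice. The log2 fold change of Ccl7 was 3.79 ± 0.826 with vehicle (adjusted p = 0.00278, edgeR, and 3.11 without vehicle MOV mouse 4) and 4.67 ± 0.300 with D + Q (adjusted p = 1.45e-09).

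Ccl8 was at 0.367, 0.920, 0.956, 2.72 and 1.88 CPM in vehicle sham mice 1 to 5 and at 0.471, 2.19, 0.487, 1.60 and 1.12 CPM in D + Q sham mice 1 to 5. The corresponding Ccl8 levels after MOV were 16.2, 8.85, 22.3, 33.7 and 17.9 CPM with vehicle and 23.6, 28.4, 30.6, 22.8 and 25.3 CPM with D + Q. The sham and MOV mice of either treatment did not overlap for Ccl8. Its log2 fold change was 3.89 ± 0.4996 with vehicle (adjusted p = 8.95e-05, edgeR) and 4.54 ± 0.276 with D + Q (adjusted p = 6.47e-08). Per kilobase of transcript Ccl8 had the highest mean of all members after MOV, 38.5 ± 17.8 CPM per kb with vehicle and 50.8 ± 6.41 with D + Q, ahead of Cxcl14 at 30.02 ± 14.9 and 30.4 ± 4.5002. In vehicle MOV mice the SDs of both genes spanned this gap. Ccl12 was at 0.0459, 0, 0, 0.116 and 0.352 CPM in vehicle sham mice 1 to 5 and at 0.157, 0.0610, 0.146, 0.679 and 0.152 CPM in D + Q sham mice 1 to 5. The corresponding Ccl12 levels after MOV were 1.21, 0.518, 1.36, 3.28 and 0.677 CPM with vehicle and 1.22, 0.691, 2.20, 2.29 and 1.73 CPM with D + Q. Ccl12 was near the floor in sham muscle, with 9 counts over the 5 vehicle mice, and in D + Q mice the highest sham and the lowest MOV level nearly met. The fitted log2 fold changes were 3.73 ± 0.753 with vehicle (adjusted p = 0.000710, edgeR, and 4.91 without vehicle sham mouse 5) and 2.72 ± 0.490 with D + Q (adjusted p = 0.000108, and 3.60 without D + Q sham mouse 4).

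The receptor Ccr2 rose with the members grouped as its ligands. Ccr2 was at 1.56, 2.13, 2.04, 2.78 and 3.88 CPM in vehicle sham mice 1 to 5 and at 1.52, 5.79, 2.73, 3.30 and 2.79 CPM in D + Q sham mice 1 to 5. The corresponding Ccr2 levels after MOV were 16.2, 8.23, 15.5, 28.3 and 18.03 CPM with vehicle and 22.4, 23.4, 25.3, 19.8 and 19.8 CPM with D + Q. No MOV mouse overlapped the sham mice of its treatment, and D + Q MOV mice lay closer together than vehicle MOV mice. Ccr2, found on inflammatory monocytes, had log2 fold changes of 2.82 ± 0.340 (adjusted p = 3.22e-05, edgeR) and 2.84 ± 0.240 (adjusted p = 9.05e-07) with vehicle and D + Q. Macrophage markers moved with the Ccr2 axis. All 8 on the list (Adgre1, Csf1r, Cd68, C1qa, C1qb, C1qc, Mrc1 and Fcgr1) were higher after MOV in both treatments, with none at 0 in any mouse. Their summed level was 31.1 to 82.7 CPM in vehicle sham and 35.4 to 76.99 CPM in D + Q sham mice, against 288, 169.9, 364, 497 and 313 CPM in vehicle MOV mice 1 to 5 and 384, 363, 445, 389 and 391 CPM in D + Q MOV mice 1 to 5. The mice lowest and highest in this sum among the vehicle MOV group, 2 and 4, were also lowest and highest for Ccl2, Ccl7, Ccl8, Ccl12 and Ccr2. This order was not particular to macrophage markers. Mice 2 and 4 were also lowest and highest in summed fibroblast markers (4503 and 9144 CPM) and lymphatic endothelial markers (31.5 and 59.8 CPM). For muscle fibre markers they were highest and lowest (109257 and 79439 CPM), and for blood endothelial markers mouse 2 was highest (241 CPM). The part of macrophage or other cell content in the Ccr2 axis differences was not tested, and in whole muscle more cells of a type and more RNA per cell cannot be told apart.

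**Figure D2:**
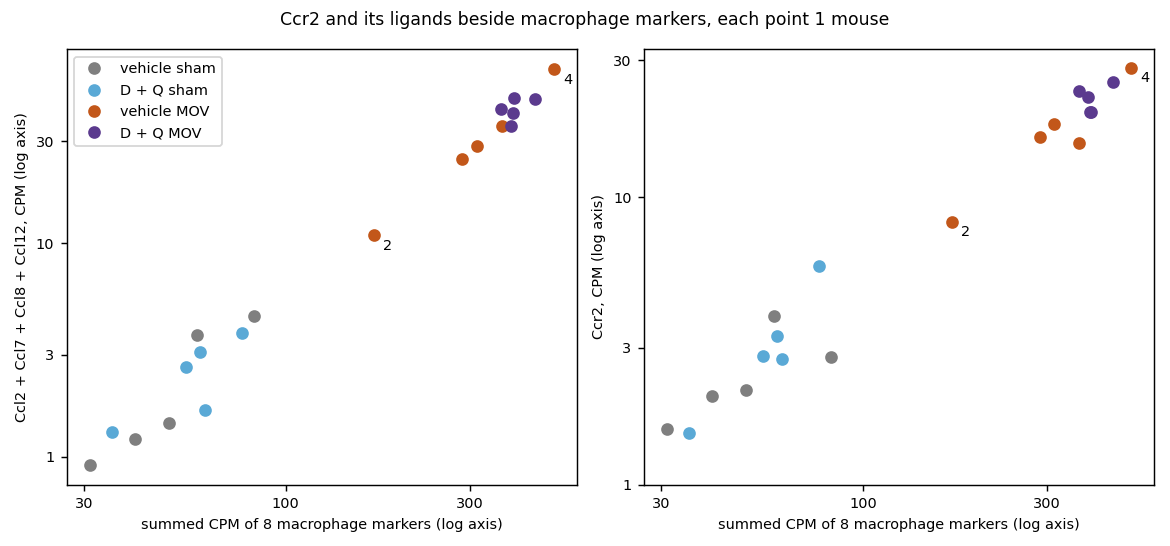
Summed CPM of Ccl2, Ccl7, Ccl8 and Ccl12 (left) and CPM of Ccr2 (right) against the summed CPM of 8 macrophage markers, on log axes, with 1 point per mouse coloured by group. Vehicle MOV mice 2 and 4 are numbered and lie at the ends of the MOV cloud, at 169.9 and 497 CPM of markers.

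Ccr1, a receptor of monocytes and macrophages, and ligands of it also rose. Ccr1 was at 0.230, 0.230, 0.127, 0.174 and 0.646 CPM in vehicle sham mice 1 to 5 and at 0.209, 0.427, 0.390, 1.16 and 0.0508 CPM in D + Q sham mice 1 to 5. The corresponding Ccr1 levels after MOV were 3.43, 1.40, 3.56, 7.62 and 2.84 CPM with vehicle and 3.02, 2.84, 3.63, 3.36 and 4.60 CPM with D + Q. These groups did not overlap between sham and MOV in either treatment. Ccr1 rose by 3.73 ± 0.506 with vehicle (adjusted p = 2.54e-05, edgeR) and by 2.96 ± 0.415 with D + Q (adjusted p = 1.44e-05, and 3.73 without D + Q sham mouse 4). Among its ligands, Ccl6 rose from 4.60 ± 1.76 to 25.7 ± 8.56 CPM with vehicle and from 5.58 ± 2.14 to 30.4 ± 3.95 CPM with D + Q (n = 5 each), a log2 fold change of 2.50 in both. Ccl9, a related macrophage product, rose by 2.36 ± 0.357 and 2.25 ± 0.269.

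Ccl5, which attracts T cells and monocytes, was near the floor in sham muscle. Ccl5 was at 0.276, 0, 0, 0.116 and 0.0587 CPM in vehicle sham mice 1 to 5 and at 0.105, 0.488, 0.195, 0.0970 and 0.0508 CPM in D + Q sham mice 1 to 5. The corresponding Ccl5 levels after MOV were 2.18, 1.35, 1.08, 4.38 and 1.31 CPM with vehicle and 1.14, 0.154, 1.60, 0.224 and 0.885 CPM with D + Q. All vehicle MOV mice were above the vehicle sham mice, while D + Q MOV mice 2 and 4 lay within the range of D + Q sham. The log2 fold change with vehicle was 4.30 ± 0.648 (adjusted p = 5.30e-05, edgeR, and 5.36 without vehicle sham mouse 1) on 9 counts over all vehicle sham mice, so that the size of the fold rests on a group near 0. In D + Q mice Ccl5 did not reach the count minimum, and with no minimum it was called higher there too. T cell markers were low. Of 8 on the list 3 could be tested in each treatment, and 2 were higher after MOV in each. The third was not called, with a log2 fold change of -0.32 with vehicle and -0.18 with D + Q. All 8 summed to 1.40 to 3.18 and 1.88 to 3.02 CPM in sham mice with vehicle and with D + Q, and to 4.02 to 9.37 and 2.84 to 7.08 CPM in MOV mice. Cd4, given as 1 example of the 8, was at 0 in all 5 vehicle sham mice and in no MOV mouse. Natural killer cell markers summed to 0.184 to 0.940 and 0.105 to 0.439 CPM in sham mice with vehicle and with D + Q, and to 0.605 to 2.19 and 0.762 to 2.33 CPM in MOV mice, and the part of either cell type in the Ccl5 levels was not tested. Ccl3 and Ccl4 stayed under the count minimum in every comparison, with 34 and 28 counts over the 5 vehicle MOV mice.

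**Figure D3:**
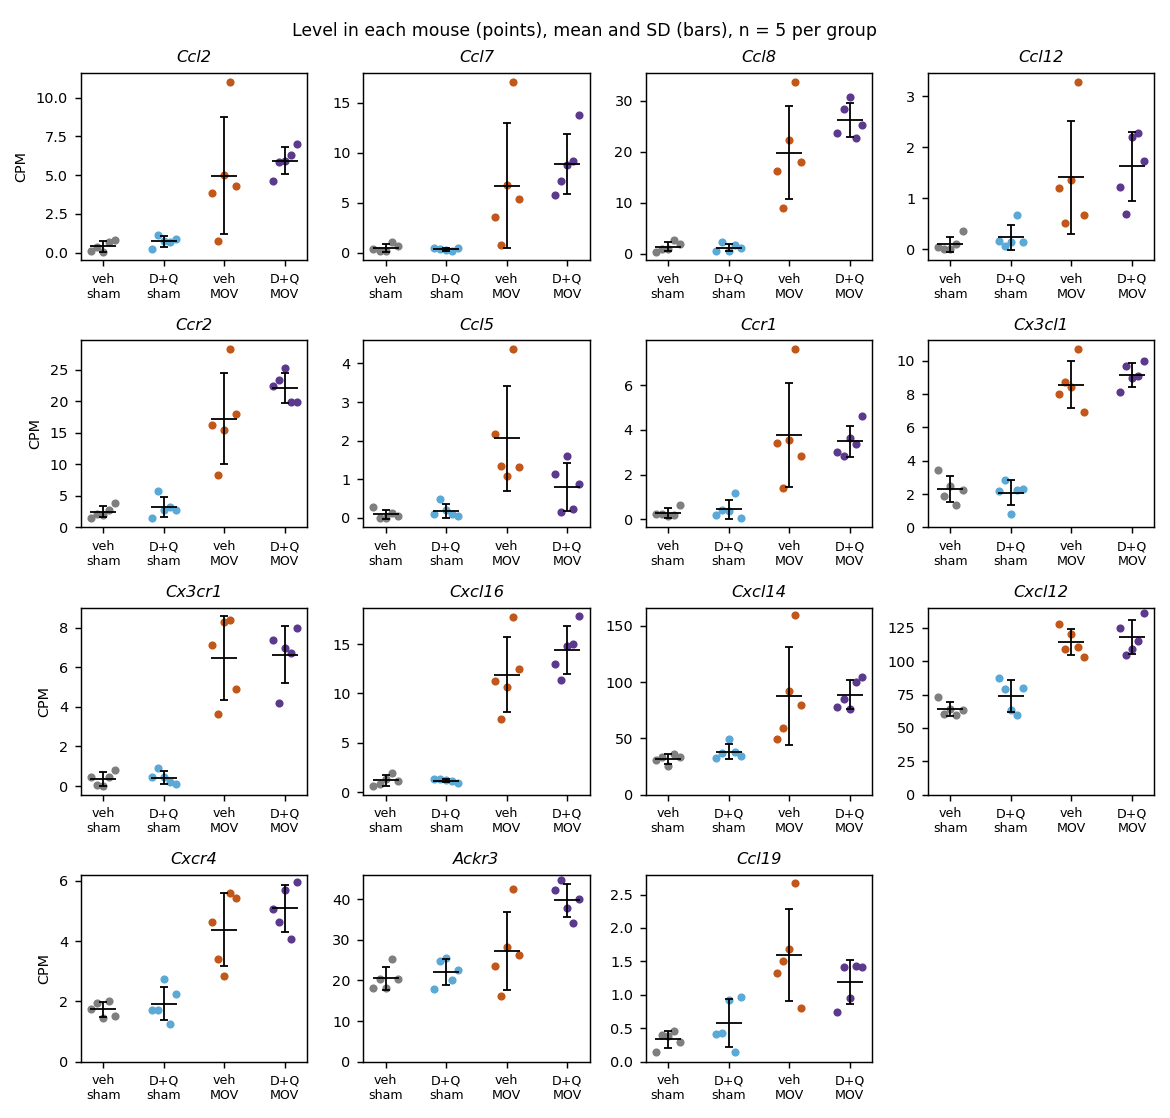
CPM of 15 members in each mouse (points, 5 per group), with the mean and SD (bars), on a separate scale for each gene. The MOV groups lie above their sham groups for most genes shown, Ackr3 separates in D + Q mice, and the vehicle MOV points are the more scattered for Ccl2, Ccl7, Ccl8 and Ccr2.

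The Cx3cl1 and Cx3cr1 pair rose as ligand and receptor. Cx3cl1 was at 3.45, 1.90, 2.49, 1.33 and 2.23 CPM in vehicle sham mice 1 to 5 and at 2.20, 2.87, 0.828, 2.23 and 2.29 CPM in D + Q sham mice 1 to 5. The corresponding Cx3cl1 levels after MOV were 8.02, 8.75, 8.42, 10.7 and 6.94 CPM with vehicle and 8.13, 9.67, 8.94, 9.05 and 10.0 CPM with D + Q. Sham and MOV mice did not overlap. Cx3cl1, made mainly by endothelium in most tissues, rose by 1.90 ± 0.210 with vehicle (adjusted p = 2.12e-06, edgeR) and by 2.19 ± 0.205 with D + Q (adjusted p = 6.66e-08). Cx3cr1 was at 0.459, 0.0575, 0, 0.463 and 0.822 CPM in vehicle sham mice 1 to 5 and at 0.471, 0.914, 0.439, 0.194 and 0.102 CPM in D + Q sham mice 1 to 5. The corresponding Cx3cr1 levels after MOV were 7.13, 3.62, 8.28, 8.41 and 4.91 CPM with vehicle and 7.38, 4.18, 6.95, 6.72 and 7.96 CPM with D + Q. The receptor, a marker of resident and patrolling monocytes and macrophages, had 0 counts in vehicle sham mouse 3 and was present in every MOV mouse at 3.62 CPM or more. Its log2 fold change was 4.13 ± 0.501 with vehicle (adjusted p = 1.83e-05, edgeR) and 4.04 ± 0.333 with D + Q (adjusted p = 3.42e-08).

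Cxcl16, a membrane-bound ligand of Cxcr6 made by macrophages and endothelium, rose in both treatments. Cxcl16 was at 0.643, 0.863, 1.40, 1.97 and 1.17 CPM in vehicle sham mice 1 to 5 and at 1.36, 1.40, 1.22, 1.12 and 0.914 CPM in D + Q sham mice 1 to 5. The corresponding Cxcl16 levels after MOV were 11.3, 7.403, 10.6, 17.8 and 12.4 CPM with vehicle and 13.0, 11.3, 14.8, 15.0 and 17.8 CPM with D + Q. The lowest MOV mouse was well above the highest sham mouse in both treatments. Its log2 fold change was 3.32 ± 0.291 with vehicle (adjusted p = 6.73e-07, edgeR) and 3.62 ± 0.159 with D + Q (adjusted p = 7.28e-12). Zmynd15 and Med11 on the opposite strand share 41.6% and 43.2% of the exonic bases of Cxcl16, and the strand setting of the counting is not given in the sources used here. The receptor Cxcr6 was tested in D + Q mice alone, where it rose by 2.83 ± 0.537 (adjusted p = 0.000158, edgeR), from 9 counts over the sham group to 82 over the MOV group. With no count minimum Cxcr6 was called higher with vehicle as well.

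Cxcl12, its receptor Cxcr4 and the scavenger Ackr3 form an axis that holds stem cells and leukocytes in tissue. Cxcl12 was at 73.5, 60.7, 64.2, 59.8 and 63.3 CPM in vehicle sham mice 1 to 5 and at 87.3, 79.1, 63.6, 59.3 and 80.1 CPM in D + Q sham mice 1 to 5. The corresponding Cxcl12 levels after MOV were 128, 109, 121, 111 and 103.1 CPM with vehicle and 125, 104, 109, 115 and 136 CPM with D + Q. The ranges did not overlap between sham and MOV. Cxcl12 rose by 0.84 ± 0.0780 with vehicle (adjusted p = 4.15e-07, edgeR) and 0.72 ± 0.107 with D + Q (adjusted p = 5.24e-05). Cxcr4 was at 1.75, 1.96, 1.47, 2.03 and 1.53 CPM in vehicle sham mice 1 to 5 and at 1.73, 1.71, 2.73, 1.26 and 2.23 CPM in D + Q sham mice 1 to 5. The corresponding Cxcr4 levels after MOV were 4.63, 3.42, 2.85, 5.60 and 5.42 CPM with vehicle and 5.07, 4.64, 5.70, 4.08 and 5.97 CPM with D + Q. These ranges were also apart, with log2 fold changes of 1.34 ± 0.220 (adjusted p = 9.43e-05, edgeR) and 1.43 ± 0.198 (adjusted p = 5.19e-06).

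Ackr3 was at 18.2, 20.4, 18.2, 25.3 and 20.4 CPM in vehicle sham mice 1 to 5 and at 17.8, 24.9, 25.4, 20.1 and 22.5 CPM in D + Q sham mice 1 to 5. The corresponding Ackr3 levels after MOV were 23.5, 16.3, 28.2, 42.4 and 26.2 CPM with vehicle and 42.3, 44.6, 37.9, 34.0 and 40.0 CPM with D + Q. All D + Q MOV mice were above all D + Q sham mice, but the vehicle MOV range enclosed the vehicle sham range. Ackr3 rose by 0.88 ± 0.0957 after MOV with D + Q (adjusted p = 4.90e-07, edgeR), and with vehicle its log2 fold change of 0.42 ± 0.215 did not pass (adjusted p = 0.113, and 0.58 with adjusted p = 0.00832 without vehicle MOV mouse 2, also past the threshold under the replicate block at 0.0333, in 1 fit over all 20 mice at 0.0468 and with library totals alone at 0.0153). The difference between these changes, the interaction of treatment and surgery, was 0.43 ± 0.252 (adjusted p = 0.875, edgeR). Cxcl14 was at 31.0, 33.1, 24.99, 35.9 and 33.5 CPM in vehicle sham mice 1 to 5 and at 32.8, 36.6, 49.6, 37.8 and 34.3 CPM in D + Q sham mice 1 to 5. The corresponding Cxcl14 levels after MOV were 49.005, 59.0, 91.7, 159.6 and 79.2 CPM with vehicle and 77.5, 85.2, 76.2, 100.5 and 105 CPM with D + Q. Cxcl14, a ligand found in epithelium, fibroblasts and muscle, was higher in every MOV mouse than in the sham mice of its treatment. It rose by 1.48 ± 0.307 with vehicle (adjusted p = 0.00236, edgeR) and by 1.26 ± 0.125 with D + Q (adjusted p = 2.20e-06). Fibroblast markers, of which all 6 were higher after MOV in both treatments, summed to 401 to 586 and 485 to 1006 CPM in sham mice with vehicle and with D + Q, and to 4503 to 9144 and 8155 to 11126 CPM in MOV mice, and their part in the Cxcl12 and Cxcl14 levels was not tested.

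Ccl19 and the Ccl21 copies guide dendritic cells and T cells through Ccr7. Ccl19 was at 0.138, 0.403, 0.382, 0.463 and 0.294 CPM in vehicle sham mice 1 to 5 and at 0.419, 0.427, 0.926, 0.146 and 0.965 CPM in D + Q sham mice 1 to 5. The corresponding Ccl19 levels after MOV were 1.33, 1.501, 1.68, 2.67 and 0.804 CPM with vehicle and 0.746, 1.42, 0.950, 1.43 and 1.42 CPM with D + Q. With vehicle the ranges were apart, and with D + Q they overlapped. Ccl19 rose by 2.26 ± 0.399 with vehicle (adjusted p = 0.000172, edgeR) and by 1.07 ± 0.394 with D + Q (adjusted p = 0.0237, lost without D + Q sham mouse 1 or 4 at adjusted p = 0.0506 and 0.0524). With vehicle no sham mouse reached 10 counts of Ccl19, so it was tested only because of its MOV mice, which favours a rise. Ccl21a, Ccl21b and Ccl21d are near-identical, and their estimated counts did not vary freely: the ratio of Ccl21b to Ccl21d was 1.06 in 19 mice and 0.0175 in vehicle sham mouse 3. Each copy alone is therefore uncertain, and their sum was tested as 1 gene, a step added after the data were seen. It went from 6.37 ± 2.26 to 14.1 ± 4.56 CPM with vehicle and from 6.12 ± 0.920 to 16.8 ± 5.17 CPM with D + Q (n = 5 each), a rise of 1.15 ± 0.289 with vehicle (adjusted p = 0.00494, edgeR) and 1.49 ± 0.223 with D + Q (adjusted p = 9.72e-05). The member counts and medians elsewhere in the text hold the copies as separate members. With D + Q, Ccl21a, Ccl21b and Ccl21d were each among the members called higher after MOV. Lymphatic endothelium, a known source of Ccl21, had all 5 markers higher after MOV in both treatments, which summed to 10.5 to 15.5 and 13.3 to 18.7 CPM in sham mice with vehicle and with D + Q, and to 31.5 to 59.8 and 39.3 to 53.5 CPM in MOV mice, and its part was not tested. Ccr7 itself had 2 counts over the vehicle sham mice and 35 over the vehicle MOV mice, and was not tested.

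The ligands of Cxcr3, induced by interferon, differed in their calls. Cxcl9 rose by 2.13 ± 0.520 with vehicle (adjusted p = 0.00345, edgeR) and 2.95 ± 0.328 with D + Q (adjusted p = 3.89e-07). Cxcl10 rose by 0.77 ± 0.291 (adjusted p = 0.0319, edgeR) and 0.85 ± 0.353 (adjusted p = 0.0426), calls that were lost when any of 5 of the 10 mice with vehicle, or any of 6 with D + Q, was left out (adjusted p up to 0.0865 and 0.101), and with D + Q also under the replicate block (adjusted p = 0.0653). Cxcl11 was called in neither. Ligands of Cxcr2, which draw neutrophils, were scarce. Cxcl1 was tested in D + Q mice alone, with a rise of 1.87 ± 0.510 (adjusted p = 0.00374, edgeR), while Cxcl2, Cxcl3 and Cxcl5 had 48, 13 and 69 counts over the 5 vehicle MOV mice. Cxcl1 too was tested only because of its MOV mice, since no D + Q sham mouse reached 10 counts. With no count minimum Cxcl1, Cxcl2 and Cxcl5 were called higher with vehicle, and Cxcl1 and Cxcl5 with D + Q. Cxcr2 had 25 and 35 counts over the sham and MOV mice given vehicle, and 40 and 23 over those given D + Q. The 5 neutrophil markers analysed summed to 3.01 to 6.93 CPM in vehicle MOV and 2.91 to 5.40 in D + Q MOV mice, against 0.597 to 2.64 and 0.711 to 4.08 in the sham groups, and their part was not tested.

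Against this rise, 3 members fell in 1 or both treatments. Ccl11, eotaxin, is given for each mouse as the neighbour of the Ccr2 ligands, a choice made after its values were seen. It was at 10.8, 14.7, 11.3, 16.6 and 10.3 CPM in vehicle sham mice 1 to 5 and 11.4, 15.2, 17.5, 14.9 and 15.1 in D + Q sham mice. After MOV it was at 4.59, 7.20, 8.70, 12.9 and 7.96 CPM with vehicle and 11.8, 11.6, 10.3, 8.74 and 7.43 with D + Q. Vehicle MOV mouse 4 was above 3 vehicle sham mice, and 2 D + Q MOV mice were above the lowest D + Q sham mouse. Per kilobase of transcript Ccl11 had the highest mean of the members in sham muscle (11.4 ± 2.46 CPM per kb with vehicle, 13.3 ± 1.96 with D + Q), within the spread of Cxcl12 at 11.3 ± 0.964 and 13.0 ± 2.10. Its log2 fold change was -0.61 ± 0.236 with vehicle (adjusted p = 0.0403, edgeR) and -0.53 ± 0.132 with D + Q (adjusted p = 0.00209). With vehicle the call was lost when any mouse other than vehicle sham 1, vehicle sham 5 or vehicle MOV 4 was left out (adjusted p up to 0.0942). Ccl25, a ligand of Ccr9, fell by 0.62 (adjusted p = 0.0159, edgeR, and 0.0516 without vehicle sham mouse 5) and 0.43 (adjusted p = 0.0245, and 0.0645, 0.0566 and 0.0638 without D + Q sham mouse 4, D + Q MOV mouse 1 or D + Q MOV mouse 3) on the log2 scale. The scavenger Ackr2 fell by 0.70 on the log2 scale with D + Q (adjusted p = 0.0271, edgeR, and up to 0.0735 without D + Q sham mouse 3, D + Q MOV mouse 3 or D + Q MOV mouse 5, and 0.0562 in 1 fit over all 20 mice). With vehicle its change of -0.48 ± 0.403 did not pass (adjusted p = 0.319, edgeR, but -0.92 with adjusted p = 0.0420 without mouse 4 of the MOV group). None of these falls was called with library totals alone, where all genes shift upward.

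The atypical receptors Ackr1 and Ackr4 rose. Ackr1, which carries chemokines across venules, went from 1.85 ± 0.329 to 4.74 ± 1.44 CPM with vehicle and from 1.90 ± 0.100 to 5.35 ± 0.682 CPM with D + Q (n = 5 each), log2 fold changes of 1.36 ± 0.230 (adjusted p = 0.000117, edgeR) and 1.53 ± 0.155 (adjusted p = 1.27e-07). Its annotation shares 25.7% of its exonic bases with Cadm3 on the same strand. Venular markers summed to 18.1 to 28.8 and 21.4 to 27.1 CPM in sham mice with vehicle and with D + Q, and to 38.6 to 60.1 and 39.7 to 54.5 CPM in MOV mice, and their part was not tested. Ackr4, a scavenger of Ccl19 and Ccl21, rose by 1.69 ± 0.364 (adjusted p = 0.000928, edgeR) and 1.73 ± 0.354 (adjusted p = 0.000340), and 20.3% of its exonic bases lie opposite Acad11. Ccl24, Ccl27a, Ccl28, Cxcl11 and Cxcl13 were tested and called in neither treatment. A further 16 members were tested in neither MOV comparison, among them the eotaxin receptor Ccr3, the Ccr4 ligands Ccl17 and Ccl22, Ccr9, Ccr10, Cxcr3, Cxcr5, Xcl1 and Xcr1. Xcl1 had 0 counts in all 10 sham mice, 1 count over vehicle MOV and 9 over D + Q MOV mice.

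**Figure D4:**
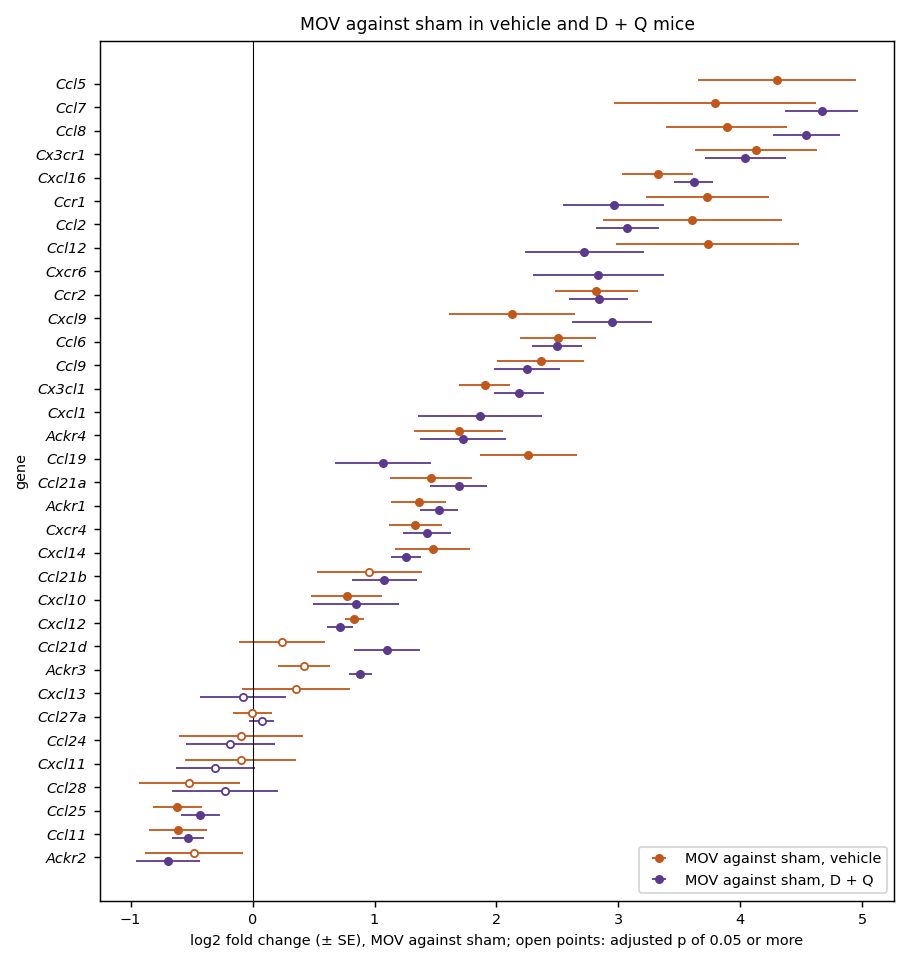
Log2 fold change of MOV against sham with its standard error for the tested members reported here, with vehicle (orange) and with D + Q (purple), ordered by the mean of both, and with open points where the adjusted p was 0.05 or more. Ccl7 and Ccl8 lie above 3 in both treatments, Cxcl12 lies under 1, and Ccl25, Ccl11 and Ackr2 lie below 0.

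Genes that carry the receptor signal were counted in the same way. Of a list of 34 signalling genes (G protein subunits, receptor kinases, arrestins, Rac activators, kinases and integrins), 33 could be tested in each treatment, and 30 were higher and 2 lower after MOV with vehicle and with D + Q alike, against 30.7% higher and 29.8% lower of all genes with vehicle and 34.4% and 30.9% with D + Q. The log2 fold change of Rgs16, a brake on G protein signalling, was 3.33 with vehicle and 3.70 with D + Q, and that of Vav1, an activator of Rac, was 3.09 and 3.31. Itgam, an integrin of myeloid cells, was at 2.84 and 3.01, and the Src-family kinase Fgr at 2.46 and 3.28. The 2 that fell, named after their values were seen, were the receptor kinases Grk3 (-0.48, -0.47) and Grk2 (-0.24, -0.19). Of 12 chemokine genes with other names, 11 could be tested, with 9 higher and 1 lower with vehicle and 8 higher and 1 lower with D + Q, against the same shares of all genes. Cmtm3, of a chemokine-like family, rose by 2.51 and 2.40 on the log2 scale. Pf4, a platelet and macrophage chemokine, rose by 2.05 and 1.93, and Cd74, the receptor of Mif, by 1.97 and 2.55. The atypical receptor Ccrl2 fell by 1.43 and 0.99 on the log2 scale. These genes include several that macrophages express, whose markers rose as given above, as did fibroblast, lymphatic and venular markers. The part of any cell type in the changes of these genes was not tested.

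The next question was whether D + Q changed these genes in overloaded muscle. At an adjusted p under 0.05 by edgeR none of the 37 members tested differed, against 0% of all genes. DESeq2 called none of the members and 11 of all 15238 genes tested. At an unadjusted p under 0.05 there were 2, against 8.79% of all genes. The members' median log2 fold change was 0.17, beside 0.0020 over all genes, with 29 above 0 and 8 below. This median moved with single mice, to 0.045 (25 above 0, 12 below) without vehicle MOV mouse 5, 0.093 (23 above 0, 14 below) without mouse 2 and 0.36 (31 above 0, 6 below) without mouse 4 of that group. Ackr3 was the higher of the 2, at 27.3 ± 9.56 CPM with vehicle and 39.7 ± 4.06 CPM with D + Q (n = 5 each). From the levels given above, each D + Q MOV mouse was higher in Ackr3 than vehicle MOV mice 1, 2, 3 and 5, and mouse 4 lay inside the D + Q range. Its log2 fold change was 0.53 ± 0.198 (adjusted p = 0.525, edgeR). Ccl5 was the lower of the 2, at 2.06 ± 1.36 CPM with vehicle and 0.800 ± 0.614 CPM with D + Q, a log2 fold change of -1.38 ± 0.568 (adjusted p = 0.547, edgeR). D + Q MOV mice 2, 4 and 5 were below all vehicle MOV mice in Ccl5, and mice 1 and 3 were not.

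The Ccr2 axis did not differ at the threshold: Ccl2 0.24 ± 0.470, Ccl7 0.39 ± 0.597, Ccl8 0.39 ± 0.279, Ccl12 0.18 ± 0.460 and Ccr2 0.34 ± 0.245 on the log2 scale, with adjusted p from 0.689 to 0.915 (edgeR). Other members near 0 were Cx3cr1 (0.02 ± 0.229), Cx3cl1 (0.08 ± 0.118), Cxcl12 (0.03 ± 0.0867) and Cxcl14 (0.01 ± 0.286). Ccr1 was at -0.13 ± 0.336, Cxcl16 at 0.25 ± 0.191, Cxcr4 at 0.20 ± 0.188 and Ccl19 at -0.43 ± 0.311. The unadjusted calls depended on single mice. Without vehicle MOV mouse 1 there were 0, and Ccl5 was also lost without D + Q MOV mouse 2, 4 or 5. Without vehicle MOV mouse 4, 10 members had an unadjusted p under 0.05, all of them higher with D + Q, against 17.4% of all genes in that fit, and none passed the adjustment. Among these were Ccl6, Ccl8, Ccl9, Ccl11, Ccl24, Cxcl9, Cxcl16, Ccr2 and Ackr3. Ackr3 was then at 0.73 (adjusted p = 0.0874, edgeR), Ccr2 at 0.59, Ccl8 at 0.66, and Ccl5 at -0.91 and no longer under an unadjusted p of 0.05. With vehicle MOV mice 2 and 4 both left out, a setting chosen after the data were seen, Ackr3 was called (log2 fold change 0.60, adjusted p = 0.0464, edgeR), as 1 of 7 genes in the whole table.

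**Figure D5:**
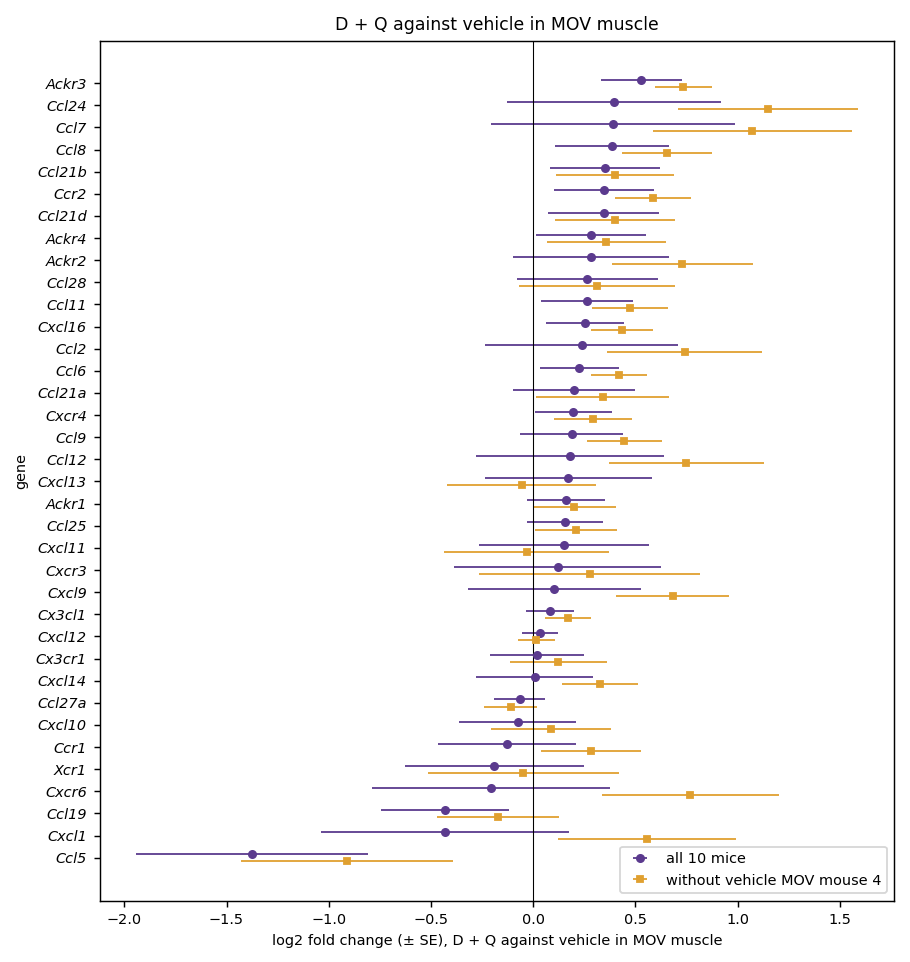
Log2 fold change of D + Q against vehicle in MOV muscle with its standard error for 36 of the 37 tested members, with all 10 mice (purple circles) and without vehicle MOV mouse 4 (yellow squares). Most members lie above 0 with and without mouse 4. Ackr3 is the highest with all mice, and Ccl5 the lowest in both.

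With all 5 mice of each group included, vehicle MOV mice were more spread than D + Q MOV mice. The SD of log2 CPM was larger with vehicle for 30 of 37 members, or 81.1%, beside 67.9% of all genes. For Ccl7 it was 1.57 with vehicle and 0.459 with D + Q, and for Ccl2 1.37 and 0.216. The median SD over the members was 0.634 and 0.36, beside 0.222 and 0.168 over all genes. Without vehicle MOV mouse 4 the count was 26 of 37 (60.4% of all genes). Without vehicle MOV mice 2 and 4 it was 18 of 37 (49.6% of all genes), with median SDs over the members of 0.388 and 0.36. Mouse 4 was the highest of its group in most members and mouse 2 the lowest in 13 of 33. A smaller SD without them therefore follows from the choice.

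Members too low to be tested here are given as counts or mean CPM per kb. Over 5 vehicle MOV mice and 5 D + Q MOV mice, Ccl3 had 34 and 10 counts, Ccl4 28 and 8, Ccl17 25 and 5, Cxcl2 48 and 12, and Cxcl5 69 and 32. Ccl22 had 43 and 33. Cxcl2 with vehicle was uneven, at 1.20 CPM per kb in mouse 1 against a group median of 0.191. In the same order, CPM per kb was 0.106 and 0.0436 for Cxcl3, 0.101 and 0.0638 for Cxcr2, and 0.0325 and 0.0165 for Ccr3. Ccr9 was at 0.0787 and 0.0726 and Cxcr5 at 0.0386 and 0.0365. Ccr7 was at 0.154 and 0.162, Ccr10 at 0.131 and 0.134 and Xcl1 at 0.0198 and 0.147. None of these reached 10 counts in 5 of these mice. With no count minimum Ccl3, Ccl4, Ccl17 and Cxcl2 joined Ccl5 and Ackr3 at an unadjusted p under 0.05, against 8.01% of all genes, and none passed the adjustment.

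In sham muscle 26 members could be tested between D + Q and vehicle. None was called by edgeR, against 0.215% of all genes, nor by DESeq2, which called 133 of all 13926 genes tested. With edgeR 1 had an unadjusted p under 0.05, against 10.2% of all genes. This was Cxcl14, at 31.7 ± 4.14 CPM with vehicle and 38.2 ± 6.65 CPM with D + Q (n = 5 each), a log2 fold change of 0.25 ± 0.114 (adjusted p = 0.477, edgeR), with overlapping groups. Ccl2 had a larger log2 fold change with a wider error, 0.80 ± 0.532 (adjusted p = 0.656, edgeR). Last, the interaction asked whether the response to MOV differed between treatments. None of 39 members was called by edgeR or DESeq2, against 0.0127% of all genes, and 1 had an unadjusted p under 0.05, against 5.71%. The interaction value of Ccl19 was -1.22 ± 0.591 on the log2 scale (adjusted p = 0.855, edgeR), and Ccl5 had the largest interaction value at -2.19 ± 1.12 (adjusted p = 0.855, edgeR). The signalling and other-named lists held no call in any of these 3 comparisons.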

How the data were processed

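Plantaris RNA of 20 mice was sequenced, 5 in each of 4 groups. Per the labels, reads were aligned with STAR 2.7.8a to GRCm39 in Partek, and the authors deposited 1 table of estimated counts per gene, not always whole and not normalised. Per the study's methods these came from Partek's expectation-maximisation quantifier, which apportions ambiguous reads, against a numbered transcriptome release. The strand setting is not given in the sources used here. Counts were rounded and tested in R 4.3.3 with the quasi-likelihood test of edgeR 4.0.16 (TMM scaling, robust fit, Benjamini-Hochberg adjustment over all genes tested), for genes reaching 10 counts in 5 or more mice of a comparison and at a threshold of 0.05. Each comparison used only its own mice, and the interaction all 20. The test was tried on simulated data first. Levels are CPM with TMM factors over all 20 mice, per kilobase where genes are compared with each other. Total counts limit precision for low members, whose values carry counting error beside the spread between mice.

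Members, gene lists and markers were chosen with earlier results of these data known. Values in every mouse are given for the 8 members with the largest mean change among those called in both MOV comparisons, for members at an unadjusted p under 0.05 in the other comparisons, and for Ccl2, Ccl5, Cxcl12, Cx3cl1, Ccr2, Cx3cr1 and Cxcr4. Alternatives were DESeq2 1.42.0, limma 3.58.1 (voom with sample weights), other scalings and count minimums, a replicate block, 1 fit over all mice, and each mouse left out. Leaving out vehicle MOV mice 2 and 4 together and summing the Ccl21 copies were added after the data were seen. Positions and promoters come from the GRCm39 genome and a GENCODE annotation of that build, which may differ from the release counted against, read with Python 3.11.15. Ccl1, Ccl20, Ccl21c, Ccl26, Ccl27b, Ccr4, Ccr6, Ccr8, Cxcl15, Cxcl17 and Cxcr1 were not analysed here. For 1 member, counted in all totals, no values are reported here.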

Additional observations from a re-analysis of the deposited data

Results flagged for a closer look

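In 6 of 156 groups of 5 mice 1 mouse stood apart by Dixon's criterion, where chance gives about 1 in 20. Ccl21b was at 0.0637 CPM in vehicle sham mouse 3, below 0.965 to 1.79 CPM in the other 4, and this is the mouse in which reads were divided differently between the Ccl21 copies. Cx3cl1 was at 0.828 CPM in D + Q sham mouse 3, below 2.20 to 2.87 CPM in the rest of its group, and Ackr2 was high in the same mouse at 2.53 CPM against 1.80 to 1.88. Ccl25 was at 4.51 CPM in D + Q sham mouse 4 against 3.71 to 3.90. After MOV with D + Q, Cx3cr1 was at 4.18 CPM in mouse 2 against 6.72 to 7.96, and Cxcl1 at 1.46 CPM in mouse 5 against 0.518 to 0.707. The causes were not tested.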

How the results depend on the processing

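With vehicle, 21 of 24 member calls after MOV held in every fit with 1 mouse left out that tested them (not Ccl11, Cxcl10 and Ccl25), and with D + Q 25 of 29 (not Ccl19, Cxcl10, Ackr2 and Ccl25). Ccl5, Ccl12 and Ccl19 with vehicle, and Cxcl1 and Cxcr6 with D + Q, could not be tested with an MOV mouse left out. They reached 10 counts in no sham mouse, and 4 mice cannot meet the count minimum. Members lower with vehicle numbered 0 with library totals alone, 1 with no count minimum and 1 to 3 with 1 mouse left out. With D + Q they numbered 0 with library totals alone and 1 to 3 with 1 mouse left out. A minimum of 30 counts left 13 members higher with vehicle, since fewer genes were tested. With no count minimum 31 members were higher with vehicle and 32 with D + Q. In those fits 9486 and 10472 of 22660 genes were called in either direction. For D + Q against vehicle in MOV, 1 member was higher without vehicle MOV mice 2 and 4.

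Log2 fold changes near 0 turned sign in that comparison. With voom Cxcl12 was at -0.010, Ccr1 at 0.0082 and Cx3cr1 at -0.044. Without mice 2 and 4 they were at -0.0094, 0.071 and -0.049. With 1 mouse left out the ranges were -0.15 to 0.33 for Cxcl14, -0.034 to 0.74 for Ccl2, -0.021 to 0.75 for Ccl12, -0.13 to 0.15 for Cx3cr1, -0.33 to 0.28 for Ccr1 and -0.022 to 0.075 for Cxcl12. The causes were not tested.

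Mice with the same replicate number did not deviate together (correlations from -0.17 to 0.22), so that the numbers do not pair the mice. With the replicate block 23 members were higher with vehicle, Ackr3 being added, and 25 with D + Q, Cxcl10 being lost. Ccr1 was then at 0.022 for D + Q against vehicle in MOV, and no other member call changed.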
